A study of Mus musculus with 2 samples.

Results

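This section concerns 10 transcription regulators known from hair follicle stem cells (Lhx2, Sox9, Nfatc1, Foxc1, Tbx1, Tcf7l1, Runx1, Nfib, Gata6 and Hopx). Every probe set whose platform annotation gave 1 of these symbols was taken, which made 32 of the 45101 probe sets on the array, for 10 of 18193 genes. The bulge and the hairshaft of the mouse follicle were compared on 1 array each. Both tissues were laser-dissected from frozen, eosin-stained skin of C57Bl6 mice aged 21 days, and 30 ng of total RNA per sample was amplified before labelling. No genotype, treatment, sex, body site or number of animals is given, and how the dissected areas were recognised is not given in the sources used here. Because each structure has 1 array, no difference can be set against a replicate spread, and all folds describe these 2 arrays.

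The bulge is a segment of the outer root sheath that keeps the follicle's stem cells between hair cycles. A small circuit of transcription factors maintains these cells: Lhx2, Sox9, Tcf7l1 and Nfib are known to hold stem cell identity, Nfatc1, Foxc1 and Tbx1 to favour quiescence and self-renewal, and Runx1 to promote entry into the growth phase. Gata6 is best known from the upper follicle and the sebaceous duct, and Hopx, a small homeodomain protein that does not bind DNA, marks cells of the lower bulge. The factors act at shared enhancers. Several are also made outside the epithelium, for example Foxc1 and Nfatc1 in endothelium, Gata6 in smooth muscle and Runx1 in blood cells.

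Markers of the labelled structures were read first. Of 15 bulge markers, 10 were past a 2-fold difference toward the bulge array and 1 toward the hairshaft array. The 1 was Itga6, which read 11.21 in the bulge array and 12.31 in the hairshaft array. Krt15 (13.99 and 13.68), Col17a1 (12.69 and 13.21), S100a4 (12.04 and 11.95) and Npnt (7.51 and 7.15) were short of the limit. On the hairshaft array only Bmp6 and Ltbp2 were at or below background, so most bulge markers were read on both arrays. The labelled hairshaft array carried little hair: of 11 markers of the hair shaft and inner root sheath, 9 had values at least 2-fold greater on the bulge array and none on the hairshaft array, and on the hairshaft array they lay between 2.29 and 3.73 (log2), with Krt31, Krt33a, Krt35 and Krt86 at or below background. Basal keratinocyte markers were above background on both arrays for all 6 genes and none was 2-fold apart. The array labelled hairshaft therefore went against its label by these markers. The array labelled bulge carried, beside bulge markers, those of hair and inner sheath and strong skeletal muscle and fat markers (median differences of 11.36 and 6.73, log2), so it was not bulge epithelium alone. Both names are used below only as labels. In bulk tissue, fewer cells of a type and less RNA per cell cannot be told apart.

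Most of the stem cell factors were higher in the bulge array. The values are log2 GCRMA summaries, and a background floor (2.68 on both arrays) was taken from probe sets for odorant and vomeronasal receptors. Of the 32 probe sets, 29 were above the floor on at least 1 array, 28 of them on both and 1 (a Gata6 probe set) on the bulge array only. Of these 29, 17 were past the 2-fold limit toward the bulge array, none toward the hairshaft array, and 12 were short of it. Among the 24161 named probe sets that cleared the floor, 9.85% passed the limit toward the bulge array and 6.75% toward the hairshaft array. The 17 probe sets belonged to 9 of the 10 genes, all but Hopx.

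**Figure D1:**
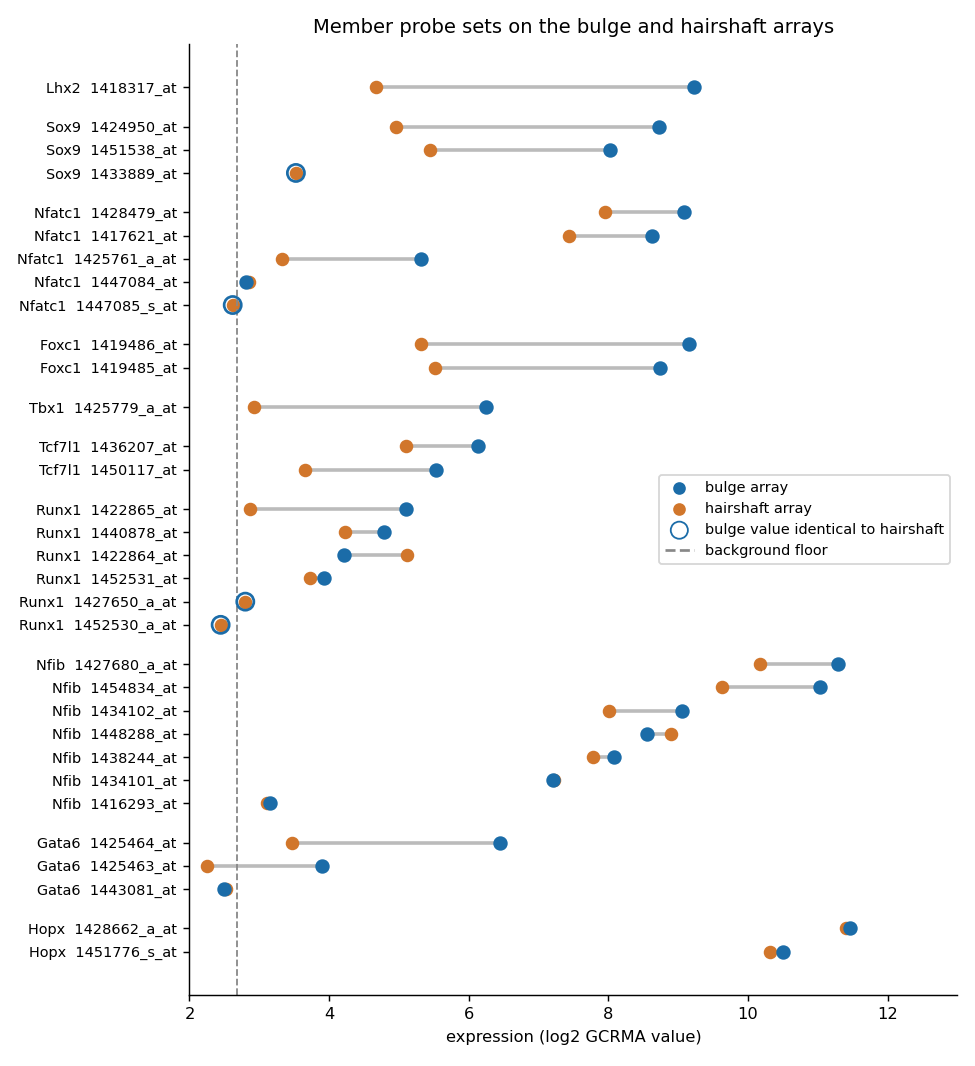
Each line is 1 probe set of a member gene; the blue point is its value on the bulge array and the orange point on the hairshaft array (horizontal axis, log2 GCRMA value), with the background floor dashed and open rings for values identical on both arrays. The Lhx2, Foxc1 and Tbx1 probe sets show wide gaps, the Hopx points lie together, and the Runx1 probe sets point both ways.

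Each gene was then read from its brightest probe set (by the mean of the arrays). By this value 8 of 10 genes passed the limit toward the bulge array and none toward the hairshaft array, against 11.4% and 4.91% of the 13328 genes that cleared the floor. Runx1 and Hopx were the other members. The median difference of the 10 genes was 2.06 (log2, bulge minus hairshaft), beside a median of 0 over all genes above the floor. The genes were listed as regulators known from hair follicle stem cells, and with earlier results of these data known. These counts therefore describe the list and are not a test of it. For 5 genes (Lhx2, Foxc1, Tbx1, Tcf7l1 and Gata6) every readable probe set passed the limit toward the bulge array. Under some alternative ways of processing this did not hold for Tcf7l1 and Gata6.

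**Figure D2:**
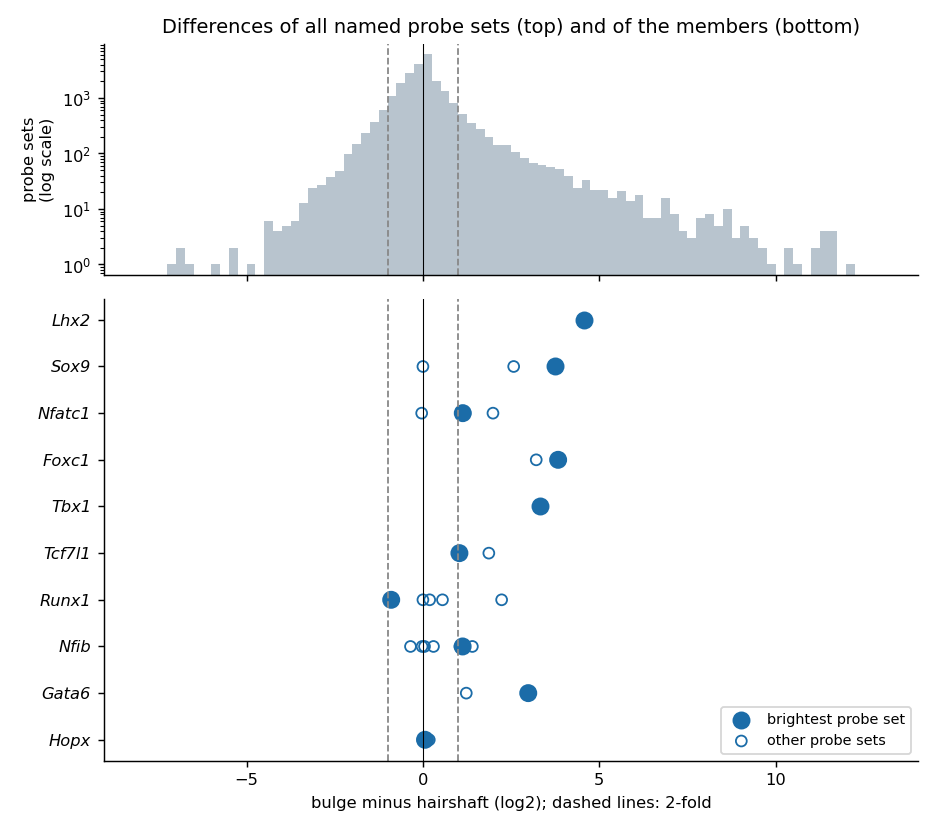
Top, the number of named probe sets above the floor (log-scaled vertical axis) at each bulge minus hairshaft difference (log2, horizontal axis); bottom, the differences of the members' probe sets above the floor, filled for the brightest probe set of a gene. No member lies left of the lower 2-fold line, and Lhx2 lies farthest right at 4.56.

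The factors of stem cell identity had the widest difference in Lhx2. Lhx2, a LIM-homeodomain factor needed to keep follicle stem cells from differentiating, read 9.23 in the bulge array and 4.67 in the hairshaft array on its only probe set (1418317_at), a 23.6-fold difference. Adding 16 to the linear values (the offset) made its log2 difference 3.90. Lhx2 was well above the floor on both arrays.

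Sox9, an HMG-box factor that specifies the outer root sheath and the future stem cells, had 3 probe sets. Probe set 1424950_at read 8.72 in the bulge array and 4.96 in the hairshaft array (13.5-fold), and 1451538_at read 8.02 and 5.44 (5.95-fold). The third, 1433889_at, gave the same dim value, 3.52, on both arrays. Sox9 was thus higher in the bulge array on its bright probe sets, both drawn from the same source record, and the mean of all 3 gave a log2 difference of 2.11 in place of 3.76.

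Tcf7l1, a TCF/LEF factor that represses Wnt target genes in stem cells, lay near the 2-fold limit. Its probe set 1436207_at read 6.14 in the bulge array and 5.10 in the hairshaft array (2.05-fold), and 1450117_at read 5.53 and 3.66 (3.65-fold). Both pointed to the bulge array. With the offset of 16 the first difference was 0.78 (log2) and with quantile normalization 0.88, both under 2-fold.

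Nfib, a nuclear factor I protein that in stem cells restrains signals to neighbouring melanocytes, had 7 probe sets, and they were divided. The 3 that differed most read 11.30 and 10.17 (1427680_a_at), 11.02 and 9.62 (1454834_at) and 9.06 and 8.01 (1434102_at) in the bulge and hairshaft arrays, which is 2.18-fold, 2.64-fold and 2.07-fold higher in the bulge array. The other 4 differed by between -0.35 and 0.30 (log2). Of 3 Nfib probe sets drawn from one source record, 2 were over 2-fold apart and the third, 1434101_at, differed by -0.02 (log2). The mean of all 7 differed by 0.51 (log2), under 2-fold.

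The quiescence-linked factors Foxc1, Nfatc1 and Tbx1 also read higher on the array labelled bulge. Foxc1, a forkhead factor induced in active bulge stem cells that returns them to rest, read 9.16 in the bulge array and 5.32 in the hairshaft array on 1419486_at (14.3-fold), and 8.73 and 5.52 on 1419485_at (9.27-fold). These probe sets came from one source record and differed by 0.62 (log2) in their contrast. Over all alternative ways of processing, the Foxc1 difference stayed between 3.39 and 3.89.

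Nfatc1, a calcineurin-dependent factor that holds bulge cells out of the cell cycle, differed less. Its brightest probe set, 1428479_at, read 9.09 in the bulge array and 7.96 in the hairshaft array (2.19-fold). Probe set 1417621_at read 8.63 and 7.44 (2.28-fold), and the dimmer 1425761_a_at read 5.31 and 3.32 (3.96-fold). Another, 1447084_at, read 2.81 and 2.85, close to the floor, and 1447085_s_at was not above it. The 3 probe sets clear of the floor shared a direction and came from separate source records. The mean of all 5 gave a log2 difference of 0.85, under 2-fold.

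Tbx1, a T-box factor that supports self-renewal of bulge stem cells, was measured by 1 probe set, 1425779_a_at. It read 6.25 in the bulge array and 2.93 in the hairshaft array, a 9.99-fold difference. The hairshaft value was only just above the floor, and the log2 difference of 3.32 became 2.04 when the 99th percentile served as the floor and 1.96 with the offset.

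Runx1, which promotes stem cell activation and is also a factor of blood and dermal cells, gave no single direction. Probe set 1422865_at read 5.10 in the bulge array and 2.87 in the hairshaft array (4.70-fold higher in the bulge array). Probe set 1422864_at, drawn from the same source record, read 4.22 and 5.12, which is 1.87-fold higher in the hairshaft array. Among the 8 source records that gave over 1 member probe set, this pair lay farthest apart, with contrasts differing by 3.13 (log2). Of the others above the floor, 1440878_at read 4.79 and 4.23, 1452531_at 3.92 and 3.73, and 1427650_a_at 2.80 on both arrays. All 6 Runx1 probe sets were dim. The mean of the 6 differed by 0.35 (log2) toward the bulge array, opposite to the brightest probe set at -0.90, and with the 99th percentile floor 1422865_at differed by 0.89.

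Gata6, a zinc finger factor of the sebaceous duct and upper follicle, read 6.45 in the bulge array and 3.47 in the hairshaft array on 1425464_at, a 7.92-fold difference. On 1425463_at, from the same source record, it read 3.91 in the bulge array and 2.25 in the hairshaft array, which is below the floor, so the fold was at least 2.34. The third probe set, 1443081_at, was not above the floor on either array. Gata6 was higher in the bulge array on both readable probe sets, by a size that depended on the processing: 1.54 (log2) with the mean of its probe sets, 1.94 with the offset and 2.24 with the 99th percentile floor, in place of 2.99. Markers of the upper follicle and sebaceous duct passed the limit toward the bulge array for 6 of 9 genes (4 to 6 over the alternatives). Over all genes above the floor the share was 11.4%. Most muscle, fat and endothelial markers, given below, passed it too, so this direction was not particular to the upper follicle.

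Hopx was the member with the smallest difference. Its probe sets read 11.47 in the bulge array and 11.41 in the hairshaft array (1428662_a_at), and 10.50 and 10.32 (1451776_s_at), differences of 0.06 and 0.18 (log2). Both values were far above the floor and below the top of the scale at 15.36. With 1 array each, this near equality has no error and does not show equal expression.

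Promoter sequence is shown for the members with the largest differences in the table of promoters used here (Lhx2, Foxc1 and Tbx1) and for Hopx, whose values were closest. These are the 250 bases before the outermost RefSeq start of each gene (GRCm38.p6), 5′ to 3′ along the gene, and capitals mark matches, on either strand, to the short motifs named below. Sox9 and Nfib had no entry in the table, and the promoters of Nfatc1 and Gata6 were not analysed here.
Lhx2, chr2:38339031-38339280, plus strand: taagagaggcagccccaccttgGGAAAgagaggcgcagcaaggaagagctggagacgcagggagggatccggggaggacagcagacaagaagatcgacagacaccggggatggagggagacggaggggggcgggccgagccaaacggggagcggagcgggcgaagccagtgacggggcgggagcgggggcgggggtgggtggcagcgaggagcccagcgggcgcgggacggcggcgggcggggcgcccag
Foxc1, chr13:31806396-31806645, plus strand: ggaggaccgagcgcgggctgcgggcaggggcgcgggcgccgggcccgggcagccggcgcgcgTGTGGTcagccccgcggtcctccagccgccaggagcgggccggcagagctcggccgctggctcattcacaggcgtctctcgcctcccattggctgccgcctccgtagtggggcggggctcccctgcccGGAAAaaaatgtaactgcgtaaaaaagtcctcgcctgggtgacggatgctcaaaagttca
Tbx1, chr16:18590672-18590921, minus strand: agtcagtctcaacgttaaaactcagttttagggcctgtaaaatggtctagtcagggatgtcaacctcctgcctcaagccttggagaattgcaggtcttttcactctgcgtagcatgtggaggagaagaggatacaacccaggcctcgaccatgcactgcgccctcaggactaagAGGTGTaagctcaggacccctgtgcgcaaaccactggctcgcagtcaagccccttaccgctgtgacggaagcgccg
Hopx, chr5:77115124-77115373, minus strand: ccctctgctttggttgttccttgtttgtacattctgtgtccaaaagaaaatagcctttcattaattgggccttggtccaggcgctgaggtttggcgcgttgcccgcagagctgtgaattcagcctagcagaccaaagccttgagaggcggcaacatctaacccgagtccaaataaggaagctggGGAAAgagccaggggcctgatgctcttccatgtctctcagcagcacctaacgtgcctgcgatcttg

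The motifs were searched on both strands in the promoters of these genes and of Runx1 and Tcf7l1, 6 in all. GGAAA, the core bound by NFAT proteins, was found in 4 of 6 (Foxc1, Hopx, Lhx2 and Runx1) and in 55.6% of all 32851 promoter windows of the same length. In Lhx2 it began 228 bases before the start, in Foxc1 60 and in Hopx 66. TGTGGT, the RUNX motif, was in Foxc1 (188 bases before the start) and in 14.0% of all windows. AGGTGT, the T-box motif, was in Tbx1 itself (76 bases before the start) and in 11.8% of all windows. TTGGCA, part of the NFI site, was in Runx1 and in 12.3% of all windows. TAATTA (LIM homeodomain, 4.84% of all windows), ACAAT (SOX, 27.7%), TGTTTA (forkhead, 12.03%), CTTTGAA (TCF/LEF, 4.46%) and AGATAA (for GATA factors, 9.99%) were in none of the 6. The window of Hopx held 52.4% G and C, the median of all windows, while those of Lhx2 and Foxc1 held 72.8% and 70.8%. A match is a description of the letters and does not show binding, and no match says only that these letters are not in this window.

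Relatives from the members' protein families give the setting for these differences. Of 71 relatives measured, Cbfb included as the partner of RUNX proteins, 41 were above the floor. Of these, 7 passed the limit toward the bulge array (4 with the 99th percentile floor or the offset), 4 toward the hairshaft array and 30 neither way. Their median difference was 0. The shares over all genes above the floor were 11.4% toward the bulge array and 4.91% toward the hairshaft array. The lists were written with earlier results of these data known.

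**Figure D3:**
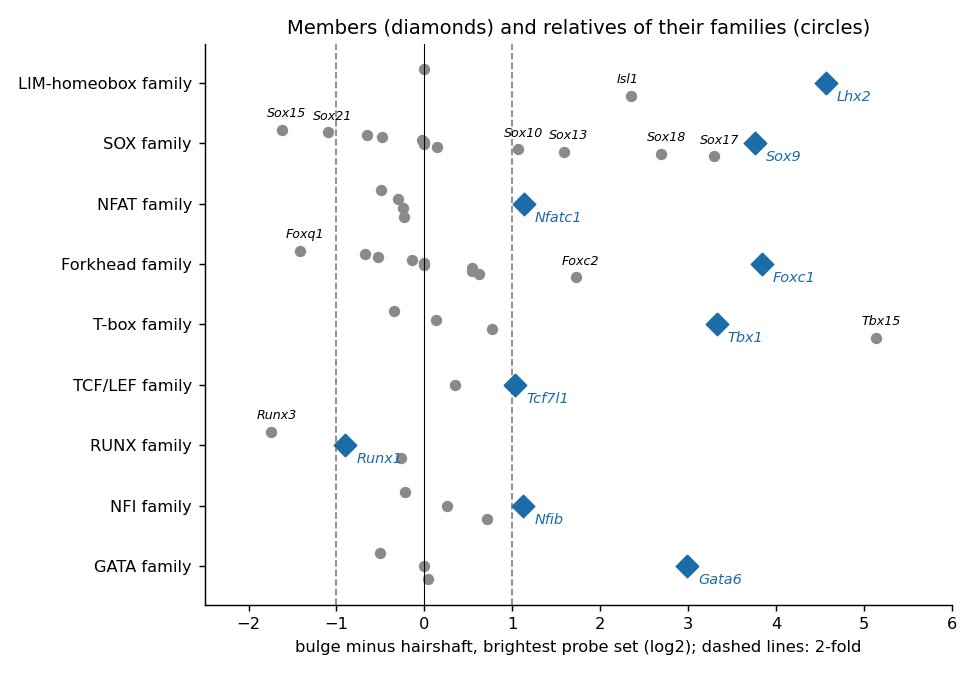
Bulge minus hairshaft difference (log2, horizontal axis) of each member (diamond) and of the relatives above the floor (circles), by protein family, from the brightest probe set of each gene; names are given past 2-fold. Tbx15 at 5.14 lies right of every member, and Runx3 at -1.74 lies farthest left.

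In the T-box family, Tbx15, a factor of dermal and skeletal muscle development, read 7.91 in the bulge array and 2.77 in the hairshaft array (35.2-fold), more than Tbx1. Its log2 difference of 5.14 was 3.49 at the lowest, with the offset. In the SOX family, 4 of 12 readable relatives passed the limit toward the bulge array. Sox17 and Sox18, factors of endothelial cells, read 5.97 against 2.47 (at least 9.79-fold) and 5.598 against 2.91 (6.45-fold). With the 99th percentile floor their log2 differences were 1.76 and 1.39, in place of 3.29 and 2.69. Sox13 was higher in the bulge array by at least 1.58 (log2) and Sox10, a factor of Schwann cells and melanocytes, by 1.06, and under some alternatives both were under 2-fold (down to 0.05 and 0.35, log2).

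Sox15 and Sox21, which are expressed in keratinocytes, were higher in the hairshaft array: Sox15 read 4.83 in the bulge array and 6.45 in the hairshaft array (3.08-fold), and Sox21 8.13 and 9.24 (2.15-fold; under 2-fold at -0.59, log2, in the alternative that reduced it most). The SOX relatives thus lay on both sides of zero.

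Among the LIM-homeodomain relatives only Isl1 and Lhx6 of 11 were above the floor. Isl1 read 5.03 in the bulge array and 2.65 in the hairshaft array (at least 5.10-fold, but only 0.82, log2, under the 99th percentile floor), and Lhx6 read 2.98 on both. In the forkhead family, Foxc2, the closest relative of Foxc1, read 4.40 in the bulge array and was below the floor in the hairshaft array (at least 3.30-fold, but 0.19, log2, with the 99th percentile floor). Foxq1, a forkhead factor of hair shaft differentiation, read 6.10 and 7.52, 2.67-fold higher in the hairshaft array. The other 8 forkhead relatives above the floor were under 2-fold apart.

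The families of Nfatc1, Nfib and Gata6 showed no relative that was 2-fold apart. Nfatc2, Nfatc3, Nfatc4 and Nfat5 differed by -0.25, -0.30, -0.23 and -0.49 (log2), each slightly higher in the hairshaft array, where Nfatc1 was higher in the bulge array. Of these, Nfatc2 and Nfatc4 came to 0.00 and 0.09 under 1 alternative each, and Nfat5 to -1.23 with plain probe sets. Nfia, Nfic and Nfix differed by 0.71, 0.26 and -0.22. Gata3, an epidermal and inner root sheath factor, read 11.67 in the bulge array and 12.18 in the hairshaft array, Gata2 4.82 and 4.77 and Gata1 3.05 on both, while Gata4 and Gata5 were not above the floor. Gata6 was the 1 GATA gene past 2-fold.

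Tcf7l2, a relative of Tcf7l1 with which it acts in stem cells, read 4.62 and 4.27 (0.34, log2, or 1.43 with plain probe sets), and Lef1, the TCF/LEF factor of hair differentiation, was not above the floor on either array. Runx3 read 4.45 in the bulge array and 6.20 in the hairshaft array, 3.35-fold higher in the hairshaft array (-0.87, log2, when its probe sets were averaged). Cbfb, the partner of all RUNX proteins, read 10.95 and 11.22. Tcf7 and Runx2 were not analysed here.

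Cofactors of the members were mostly level, like most genes above the floor. Of 23 genes, all above the floor, 2 passed the limit toward the bulge array, 1 toward the hairshaft array and 20 neither way. Their median difference was 0. Over all genes above the floor, 11.4% passed the limit toward the bulge array and 4.91% toward the hairshaft array. Ldb2, a LIM-domain-binding bridge protein, read 7.14 in the bulge array and 3.32 in the hairshaft array (14.1-fold; a log2 difference of 3.82, or 2.31 with plain probe sets). Ssbp3, which stabilises this bridge, read 8.13 and 6.92 (2.32-fold). Lmo4, a LIM-only protein that competes for it, read 8.36 and 9.77, 2.66-fold higher in the hairshaft array. The listed genes related to these, Ldb1, Lmo1, Lmo2 and Ssbp2, differed by -0.31, 0.46, 0.90 and -0.19 (log2), so such genes lay on both sides of zero. Ldb1, the main bridge protein for Lhx2, read 8.75 and 9.05, and beta-catenin (Ctnnb1) 11.89 and 12.60. The calcineurin subunits that activate NFAT proteins differed by 0.53 (Ppp3ca), 0.997 (Ppp3cb, just under the limit; 1.10 with the loess trend removed and 0.50 with probe sets averaged) and 0.59 (Ppp3r1; 0.10 with probe sets averaged), while Rcan1, an inhibitor induced by calcineurin, differed by -0.96.

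Genes reported to be controlled by these factors were divided. Over all genes above the floor, 11.4% passed the limit toward the bulge array and 4.91% toward the hairshaft array. Of 10 readable genes in this list, 5 passed the limit toward the bulge array (3 to 6 over the alternatives at 2-fold) and 5 did not. The 5 were the members Sox9 and Nfatc1 themselves, the stem cell receptor Lgr5 (6.15 in the bulge array, 2.75 in the hairshaft array), the ligand Bmp6 (5.85 and 2.62, a log2 difference of at least 3.17), which maintains quiescence, and Kitl (8.63 and 7.61), the melanocyte growth factor restrained by Nfib. Kitl was at the limit with 2.03-fold and under it when its probe sets were averaged (0.61, log2), with the offset and quantile normalization. The lowest log2 difference over the alternatives was 1.52 for Lgr5 (mean of probe sets), in place of 3.41, and 1.64 for Bmp6 (99th percentile floor).

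The other 5 readable genes of this group were under 2-fold apart by their brightest probe sets. Cdk4, a kinase that Nfatc1 represses, read 9.16 in the bulge array and 9.07 in the hairshaft array. The inhibitor Cdkn1a, a target of Runx1, read 11.13 and 11.75, and the cyclin gene Ccnd1 differed by -0.34 (log2). With probe sets averaged, Ccnd1 passed the limit toward the hairshaft array at -1.19, and Cdkn1a lay just short of it at -0.998. Bmp2 read 7.76 and 7.45, Gli1 3.62 and 2.32 (a log2 difference of at least 0.95, or 1.31 with no floor), and Edn2, a melanocyte factor that Nfib represses, was not above the floor on either array. Prlr was not analysed here.

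Markers of several other cell types also read higher on the array labelled bulge. Over all genes above the floor, 11.4% passed the limit toward the bulge array and 4.91% toward the hairshaft array. Of 15 skeletal muscle markers, 11 passed the limit toward the bulge array, where the summed level of the list was 17.64 (log2) against 6.87 in the hairshaft array; Acta1 read 15.15 and 3.11. The myogenic factors Myod1, Myog and Myf5 and the satellite cell factor Pax7 stayed at or below the floor throughout. All 8 adipocyte markers measured were higher in the bulge array, with summed levels of 14.97 and 7.06. For endothelial cells 9 of 10 passed the limit toward the bulge array, with summed levels of 10.17 and 7.70. On the hairshaft array Pecam1, Cdh5 and Kdr were at or below the floor. Smooth muscle and pericyte markers passed the limit toward the bulge array for 8 of 9 genes (summed levels 13.04 and 10.83). Sebaceous markers did so for 5 of 6 (15.25 and 12.23).

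Leukocyte, mast cell and fibroblast markers did not share this direction. Of 8 leukocyte markers 1, Cd3e, was 2-fold apart, higher in the hairshaft array (summed levels 12.10 and 12.47). Mast cell markers passed the limit toward the hairshaft array for 4 of 6 genes (7.999 and 9.59). Dermal fibroblast markers did so for 3 of 7, with 1 past it toward the bulge array (15.13 and 16.34). Melanocyte markers, like those of muscle and fat, passed the limit toward the bulge array, for 4 of 4 above the floor (9.10 and 6.87). Schwann cell markers did so for 2 of 4 (7.89 and 7.48). Of 6 readable dermal papilla markers (Sox18 included), 3 passed the limit toward the bulge array and 1 toward the hairshaft array (8.98 and 8.73). The part of these cells in the values of the 10 factors was not tested, and on 1 array a side the dissected cell mixture and the structure cannot be told apart.

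**Figure D4:**
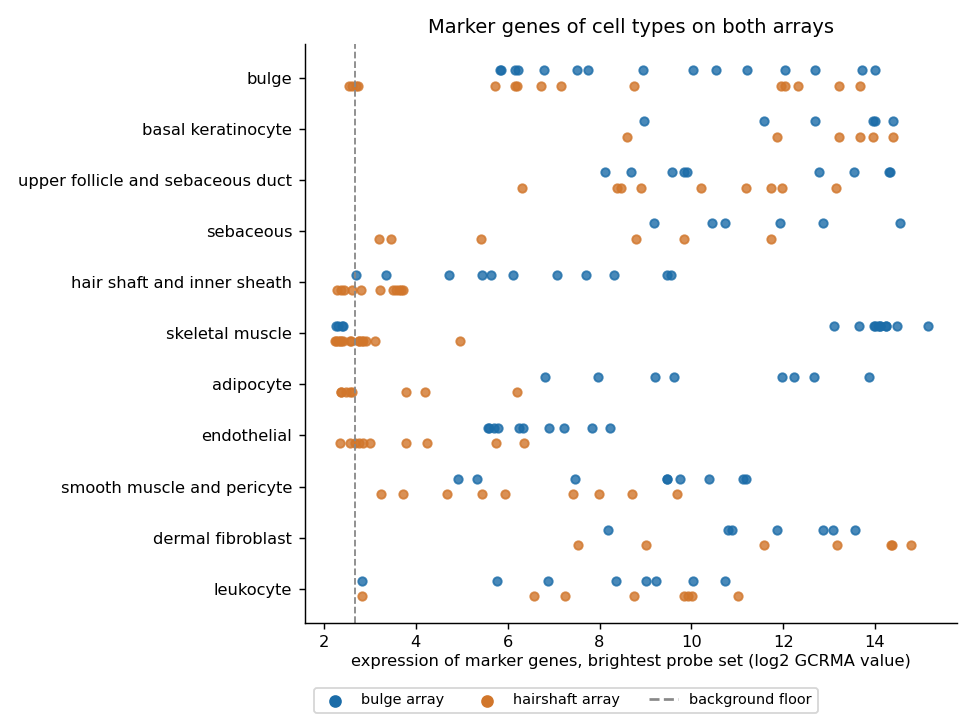
Values of marker genes (log2 GCRMA, horizontal axis; 1 point a gene, brightest probe set) (blue, bulge; orange, hairshaft), by cell type, with the background floor dashed. Muscle and fat markers lie far apart between the arrays, basal keratinocyte markers overlap, and hair shaft and inner sheath markers stay at or below 3.73 on the hairshaft array.

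The way of processing moved sizes more than directions. Across the alternatives 6 to 8 of the 10 genes passed the limit toward the bulge array, the lowest with the mean of each gene's probe sets, where Nfatc1 and Nfib dropped out. Lhx2, Sox9, Foxc1, Tbx1 and Gata6 stayed past 2-fold in all alternatives that gave a value. Tbx1 and Hopx had no plain probe set and so no value in that alternative.

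**Figure D5:**
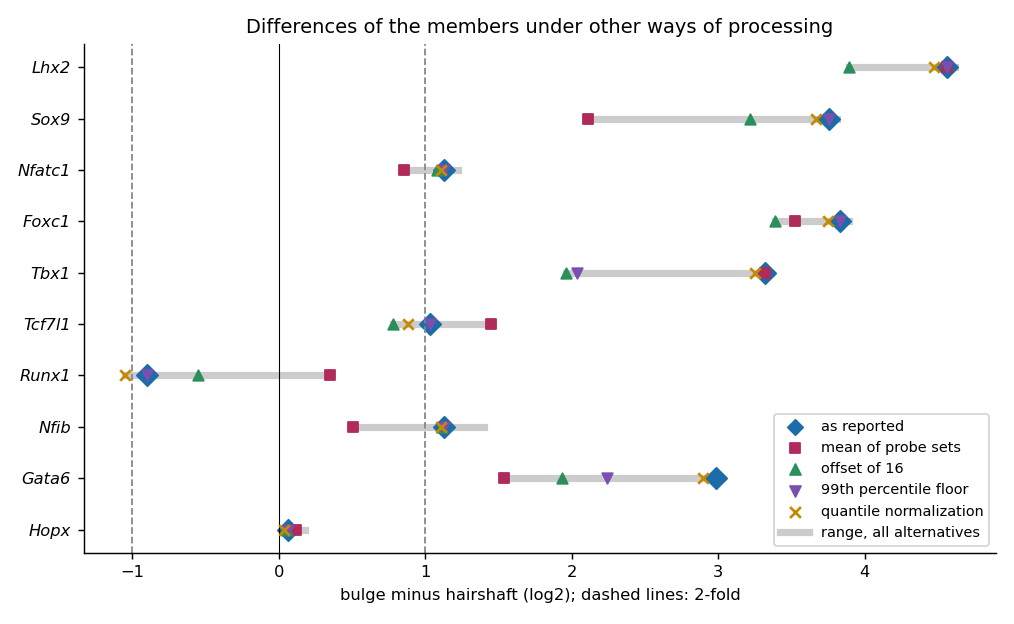
Difference of each member gene (bulge minus hairshaft, log2, horizontal axis) as reported (diamond) and under other ways of processing (other symbols; the grey bar spans all alternatives). Hopx and Nfatc1 span least, Sox9, Gata6, Tbx1 and Runx1 span most, and Runx1 runs from -1.05 to 0.35.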

How the data were processed

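Expression was measured on 1 array per structure. The authors deposited normalized log2 values, processed with GCRMA per the submitters' processing notes; its version and settings are not given here. That the scale is log2 follows from the range, 2.23 to 15.36. The sorted columns differed by at most 0.19, and no scaling was added. All columns were used (0 unmatched).

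The platform annotation gave 1 symbol for 34958 probe sets and several for 932; 9211 were unnamed here. Leaving out the array's control probe sets kept 34945 named probe sets of 18193 genes. Symbols were updated by Entrez identifier for 34754 (RefSeq names, GRCm38.p6). The annotation's Tcf3 is the E2A gene, so its probe sets were not taken for Tcf7l1.

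The floor was the 95th percentile of 80 receptor probe sets on each array. A dimmer value was replaced by the floor, and the fold is then written as "at least". Calls were made at a fixed 2-fold limit. With 1 array per group there were 0 residual degrees of freedom, so p-values and SDs are absent, and an array's number limits the precision in place of depth. Summed levels are log2 of the sum of linear values.

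All probe sets of the members are described; of the family, cofactor and downstream lists, genes at least 2-fold apart (up to 6 a list) and every member of the small families are named, and of marker lists up to 4. A few further genes were named after their values were seen. Members and lists were chosen with earlier results of these data known. Counting was tested on simulated data, with differences well past the limit planted in bright probe sets only. Dim values and differences near the limit were not covered. Alternatives were other floors (99th percentile, 4.21; median of all probe sets; none), an offset of 16, loess (span 0.3), median centring, quantile normalization, a 1.5-fold limit, plain probe sets (without _a_at, _s_at or _x_at) and the mean of probe sets. Python 3.11.15, pandas 2.3.3, numpy 2.4.6 and statsmodels 0.14.6 were used.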

Additional observations from a re-analysis of the deposited data

How the results depend on the processing

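The number of member probe sets at least 2-fold higher in the bulge array was 14 to 17 over the alternatives and that of member genes 6 to 8. The median difference of the member genes ran from 1.49 (mean of probe sets) to 2.19 (plain probe sets). With quantile normalization 1 probe set and 1 gene, both Runx1 at -1.05 (log2), were past 2-fold toward the hairshaft array in place of 0, and with a 1.5-fold limit 1 and 1. Of 194 values of single probe sets under 7 alternatives, 13 moved by over 1.5-fold, each to a smaller difference; they belonged to 7 of 29 probe sets, and none of the differences past 2-fold changed sign. Leaving out the probe sets with identical values, an alternative chosen after seeing the data, changed no count of members past 2-fold, and the alternatives for the other lists were added then too. Over them the relatives past 2-fold numbered 4 to 8 in the bulge array and 3 to 5 in the hairshaft array (1.5-fold limit not included). Leaving out a replicate was not possible with 1 array per structure. Dim hairshaft values limit the folds of Tbx1, Gata6 and Runx1, and to a lesser degree that of Lhx2.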

Other observations

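Values that are identical on both arrays to all deposited digits were common in the table: 17293 of 45101 probe sets (38.3%), and 2536 of the 24161 named probe sets above the floor (10.5%). Among the members they were 4 of 32, and 2 of 29 above the floor (6.90%), namely 1433889_at of Sox9 at 3.52 and 1427650_a_at of Runx1 at 2.80. How such values arose is not given in the sources used here, so they are read as no measured difference.

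Probe sets of some members disagreed widely. For the 8 members with over 1 probe set above the floor, the median gap between a gene's highest and lowest difference was 1.76 (log2), beside 0.53 over 6254 such genes. In 4 of the 8 (Sox9, Nfatc1, Runx1 and Nfib) some but not all probe sets passed 2-fold toward the bulge array, and in 3 (Foxc1, Tcf7l1 and Gata6) all were. The genes were not matched on the size of their difference or on their number of probe sets. Such a gap can only widen as probe sets are added, and Nfib had 7 above the floor and Runx1 5. The 32 member probe sets came from 23 source records, 8 of which gave over 1 probe set.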
